A study of Homo sapiens with 12 samples.

Results

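The glycolytic enzymes and hypoxia-inducible genes followed here were 38 genes out of the 58721 in the count table, matched to the table by gene symbol. They comprised 16 genes for the enzymes that turn glucose into lactate, 6 genes for transporters and regulators of that pathway, 14 other targets of the hypoxia-inducible factors (HIF) and 2 genes for HIF alpha subunits. The genes were listed by known function, but the choice was made with earlier results of these data known. Each of the 38 passed the filter on low counts.

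The data were read counts from 12 libraries of polyadenylated RNA, made from 2 Ewing sarcoma cell lines, EW8 and TC71. The groups were EW8 with vehicle, EW8 with doxycycline, TC71 with vehicle and TC71 with doxycycline, with 3 libraries each. All 4 groups carried the same lentiviral constructs, in which a TRE3G promoter drives c-Jun and c-Fos joined by a self-cleaving peptide sequence and the EF1 alpha promoter drives the Tet-On 3G transactivator, and they were grown in DMEM with 10% FBS. Vehicle was DMSO and doxycycline was given at 2000 ng/ml, both for 72 h. The vehicle groups are labelled WT although their cells carry the constructs. No cells given doxycycline without the c-Jun and c-Fos transgenes were analysed here, so effects of the drug and of the AP-1 subunits cannot be told apart. Nothing states that the libraries of a group came from separate cultures, and the p-values then measure the spread between these libraries, which may be technical.

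Glycolysis converts glucose to pyruvate through a chain of cytosolic enzymes, several of which exist as isozymes from separate genes. HIF is a transcription factor made of an oxygen-sensitive alpha subunit, encoded by HIF1A or EPAS1, and a constant beta subunit. When oxygen is low the alpha subunit escapes hydroxylation and degradation, and HIF raises many glycolytic genes together with genes for vessel growth, pH control and mitophagy. AP-1, the dimer of Jun and Fos proteins, binds a different short DNA motif.

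Library totals ran from 42860665 to 60853649 counts. JUN and FOS, the induced genes, were called higher with doxycycline in both lines, although transgene and endogenous reads share their counts. The 6 Ewing sarcoma markers examined (CD99, NR0B1, NKX2-2, LIPI, STEAP1 and PRKCB) were detected in every library, from 9.42 CPM (counts scaled to a common library size) upward. By the adjusted p with no fold limit, 1 of these markers was higher and 4 lower with doxycycline in EW8, against 21.9% and 22% of all genes. In TC71, 2 were higher and 3 lower, against 25.1% and 20.4%. LIPI went from between 43.9 and 50.2 CPM to between 16.3 and 20.4 CPM in EW8. The summed level of the 6 markers went from between 1413 and 1453 CPM to between 1714 and 1745 CPM in EW8. In TC71 it went from between 1140.2 and 1264 CPM to between 1260 and 1296 CPM. CD99 made up most of the EW8 sum and went from between 793 and 825 CPM to between 1230 and 1256 CPM. PRKCB went from between 251 and 264 CPM to between 140 and 152 CPM in EW8. The part of the 6 markers in the results was not tested. PTPRC, which encodes the leukocyte antigen CD45, was at 59.6 to 77.4 CPM in the EW8 libraries and at most 0.145 CPM in those of TC71, while the T cell marker CD3E stayed at or below 0.0359 CPM throughout. TC71 vehicle replicate 1 stood apart, with an SD of log2 differences over all genes of 0.694 and 0.734 to the other libraries of its group. All other replicate pairs had 0.575 to 0.676. Several TC71 responses are given below with and without it. Others also moved without it on the log2 scale, such as EPAS1 (3.86 to 4.31) and DDIT4 (-2.10 to -2.64). ANKRD37 went from 0.77 to 1.15, VEGFA from 0.62 to 0.41 and SLC2A1 from 0.18 to -0.03.

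The promoter windows that bear on the induced factor and on HIF are shown first. RefSeq windows of 300 bases, from 250 before to 50 after a transcription start, were held for 34 of the 38 genes, with 62 windows in all, and were not held for VEGFA, SLC2A3, BNIP3L and NDRG1. The AP-1 motif TGACTCA, searched on both strands, was in 5 of the 62 windows (8.06%), against 4.95% of 35116 promoter windows genome-wide. Those 5 belonged to HK1 (2 of its 7 windows), KDM3A, ENO2 and CA9. The HIF core motif, ACGTG or GCGTG on either strand, was in 43 of the 62 windows (69.4%) and in 48.4% of all windows. Genes with several windows count more than once in these shares, and the list was made in part of HIF targets. The shares were not tested against each other. The sequences printed are 4 of the 5 windows with the AP-1 motif and 1 window of PFKFB3 without it, which holds the palindrome CACGTG that counts as 2 overlapping HIF cores. They are given 5′ to 3′ on the gene's strand in build GRCh38.p14, and capitals mark either motif (7 bases for AP-1, 5 or more for the HIF core).
HK1 window A, chr10:69315519-69315818, plus strand: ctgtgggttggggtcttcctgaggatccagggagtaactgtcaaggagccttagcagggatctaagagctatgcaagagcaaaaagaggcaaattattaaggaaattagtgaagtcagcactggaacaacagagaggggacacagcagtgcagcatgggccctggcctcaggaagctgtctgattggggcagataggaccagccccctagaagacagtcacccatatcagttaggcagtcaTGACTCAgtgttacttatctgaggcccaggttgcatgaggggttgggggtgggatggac
HK1 window B, chr10:69334364-69334663, plus strand: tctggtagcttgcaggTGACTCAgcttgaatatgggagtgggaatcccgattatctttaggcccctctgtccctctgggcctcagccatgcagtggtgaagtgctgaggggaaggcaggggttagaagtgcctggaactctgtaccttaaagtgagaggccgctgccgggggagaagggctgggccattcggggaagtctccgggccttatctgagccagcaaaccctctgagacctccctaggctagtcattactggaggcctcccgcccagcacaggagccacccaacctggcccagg
KDM3A, chr2:86441211-86441510, plus strand: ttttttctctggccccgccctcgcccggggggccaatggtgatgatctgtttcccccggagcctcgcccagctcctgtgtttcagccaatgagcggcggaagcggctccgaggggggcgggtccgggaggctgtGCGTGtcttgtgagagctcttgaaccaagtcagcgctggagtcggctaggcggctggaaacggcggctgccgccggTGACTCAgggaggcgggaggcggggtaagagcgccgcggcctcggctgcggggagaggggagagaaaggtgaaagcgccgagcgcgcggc
CA9, chr9:35673678-35673977, plus strand: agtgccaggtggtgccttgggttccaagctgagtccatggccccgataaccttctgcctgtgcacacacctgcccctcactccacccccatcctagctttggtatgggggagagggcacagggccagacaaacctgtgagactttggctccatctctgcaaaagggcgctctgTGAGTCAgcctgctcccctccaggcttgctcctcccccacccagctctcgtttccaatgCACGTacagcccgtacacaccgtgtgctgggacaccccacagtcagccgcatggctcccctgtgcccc
PFKFB3, chr10:6202682-6202981, plus strand: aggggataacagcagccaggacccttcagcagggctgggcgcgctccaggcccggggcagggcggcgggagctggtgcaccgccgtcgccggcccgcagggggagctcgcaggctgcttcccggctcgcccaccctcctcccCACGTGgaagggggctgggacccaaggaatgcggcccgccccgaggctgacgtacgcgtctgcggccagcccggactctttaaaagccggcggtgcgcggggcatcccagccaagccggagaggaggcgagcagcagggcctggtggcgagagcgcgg

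HK1 and KDM3A were higher with doxycycline in both lines, ENO2, whose window is not printed, was higher in TC71 and did not pass in EW8, CA9 was close to the detection limit and passed no test of its response, and PFKFB3 was higher in both lines with no AP-1 motif in the window shown. The windows held for PFKP, PGAM1, ENO1, PKM, CA12, ADM and ANGPTL4, also higher in both lines by the adjusted p, had no AP-1 motif. Counts per gene do not show which transcription start was used. A match of letters in a window is a description and does not show that a factor was bound there.

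With doxycycline, PKM, PFKFB3, CA12, ADM and NDRG1 were called higher in both lines, where a call needs an adjusted p below 0.05 in edgeR's quasi-likelihood test and a log2 fold change beyond 1 in size. In EW8, 6 of the 38 genes were called higher, against 11.4% of all 21013 genes tested, and 0 were called lower, against 3.38%. In TC71, 10 were called higher, against 12.3% of all genes, and 1 was called lower, against 3.67%. VEGFA was called in EW8 and not in TC71, while HK1, PFKP, PFKFB4, ANGPTL4, EPAS1 and DDIT4 were called in TC71 and not in EW8.

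By the adjusted p alone, with no fold limit, 15 genes were higher and 8 lower in EW8, where 21.9% and 22% of all genes were, and 19 were higher and 5 lower in TC71, where 25.1% and 20.4% were. Of the 38 genes, 12 were higher in both lines by this rule (HK1, PFKP, PGAM1, ENO1, PKM, PFKFB3, VEGFA, CA12, ADM, NDRG1, KDM3A and ANGPTL4), 4 were lower in both (GPI, PFKL, PFKM and TPI1), and HK2 moved in opposite directions. Another 8 passed in neither line, namely SLC2A1, SLC2A3, SLC16A3, CA9, BNIP3L, EGLN3, ANKRD37 and P4HA1.

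Some of these passes depended on the analysis. Of 19 alternatives, LDHA in TC71 lost its pass in 15, PDK1 in TC71 in 8, ANGPTL4 and TPI1 in EW8 in 7 each, ALDOC in EW8 in 6, ENO2 in TC71 in 5 and PFKL in EW8 in 1. In the other direction, ALDOC in TC71 gained one in 10, ENO2 in EW8 in 7, SLC2A3 in EW8 in 4, and ALDOA in TC71 and HIF1A in EW8 in 3 each. Without TC71 vehicle replicate 1, which also enters the shared estimate of the spread, HIF1A, EPAS1, PFKFB4, SLC2A3 and ENO2 passed in EW8, at log2 fold changes between 0.14 and 0.36.

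The fold changes of the enzymes were mostly under the limit, and those of the other HIF targets reached further, with median sizes closer in EW8 than in TC71. Of the 16 enzymes, 1 was called higher in EW8 and 3 in TC71, with 0 called lower in either line. Over all genes tested, 11.4% were called higher and 3.38% lower in EW8, and 12.3% and 3.67% in TC71. The median log2 fold change of the enzymes was 0.08 in EW8 and 0.18 in TC71, and the medians over all genes tested were -0.03 and 0.00. Of the 14 other HIF targets, 4 were called higher in each line, and 1 was called lower in TC71, with medians of 0.56 in EW8 and 0.69 in TC71. These medians keep the sign, so that rises and falls cancel. With the sign dropped, the medians were 0.48 for the enzymes and 0.56 for the other HIF targets in EW8, and 0.27 and 0.82 in TC71. Over all genes tested they were 0.41 in EW8 and 0.44 in TC71. Without the fold limit, EW8 had 7 enzymes higher and 7 lower, and TC71 had 8 higher and 4 lower. Of the other HIF targets, EW8 had 7 higher and 1 lower, and TC71 had 6 higher and 1 lower. By this rule 21.9% of all genes were higher and 22% lower in EW8, and 25.1% and 20.4% in TC71. No test of the lists against each other was made, because the genes were chosen with results of these data known.

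**Figure D1:**
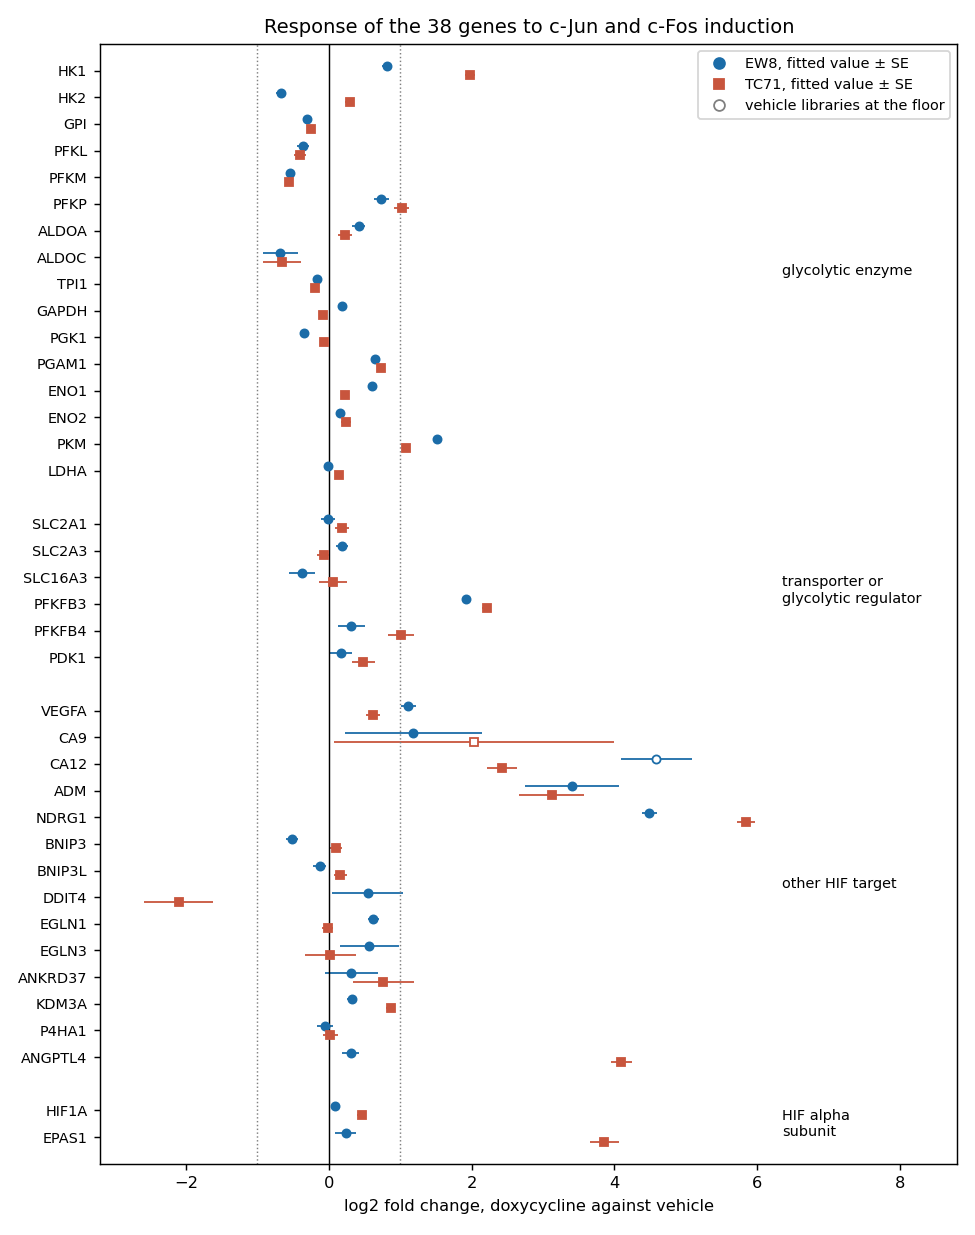
Fitted log2 fold change of doxycycline against vehicle for each of the 38 genes, grouped by role, with SE bars, in EW8 (circles) and TC71 (squares). The dotted lines mark the fold limit of 1, and the open symbols (CA12 in EW8, CA9 in TC71) have all vehicle libraries at or under 6 counts. Most enzymes lie inside the dotted lines, while NDRG1 reaches 4.49 in EW8 and 5.84 in TC71.

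The pathway begins with the hexokinases, which trap glucose in the cell as glucose 6-phosphate. HK1 (ENSG00000156515.23, hg38 chr10:69269984-69401884) was at 172, 172 and 188 CPM in the EW8 vehicle libraries and at 320, 306 and 307 CPM with doxycycline. In TC71 its levels were 30.2, 35.9 and 35.6 CPM with vehicle and 134, 139 and 129 CPM with doxycycline. The treated libraries lay above the vehicle libraries in both lines, and TC71 started lower. The log2 fold change was 0.81 ± 0.06 (SE, n = 3 per group) in EW8, with an adjusted p of 8.0e-09 by edgeR, and 1.98 ± 0.07 in TC71, with an adjusted p of 3.8e-14. The response of TC71 exceeded that of EW8 by 1.17 ± 0.09 on the log2 scale (adjusted p = 4.7e-08, edgeR), and by 0.97, just under the fold limit, without TC71 vehicle replicate 1.

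HK2, the hexokinase isozyme usually raised by HIF, fell in EW8 from 78.6, 84.7 and 81.0 CPM to 50.8, 52.9 and 49.8 CPM, a log2 fold change of -0.67 ± 0.06. In TC71 it rose from 118, 134 and 133 CPM to 161, 160 and 149 CPM, a log2 fold change of 0.29 ± 0.06 that was 0.15 (adjusted p = 0.033, edgeR) without vehicle replicate 1. In neither line did the treated and vehicle libraries overlap, and the responses differed by 0.96 ± 0.09 with an adjusted p of 3.1e-07 by edgeR.

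Of the 3 phosphofructokinase genes, whose enzymes commit the sugar to glycolysis, PFKP rose and PFKL and PFKM fell in both lines. PFKP (ENSG00000067057.16, hg38 chr10:3066333-3137712) went from 114, 139 and 133 CPM to 226, 222 and 195 CPM in EW8, and from 139, 188 and 199 CPM to 346, 386 and 335 CPM in TC71. The treated libraries were above all vehicle libraries of their line. The log2 fold changes were 0.74 ± 0.11 in EW8 and 1.02 ± 0.11 in TC71. The TC71 value sits at the fold limit, which it missed in 10 of 19 alternative analyses, with 0.80 as the lowest value. PFKM had log2 fold changes of -0.54 in EW8 and -0.56 in TC71, and PFKL of -0.36 and -0.40, each past the adjusted p.

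In the middle of the pathway the changes were small. GPI, glucose-6-phosphate isomerase, had log2 fold changes of -0.30 in EW8 and -0.25 in TC71, and TPI1, triosephosphate isomerase, of -0.16 and -0.19, each past the adjusted p. ALDOA, the main aldolase, rose by 0.42 in EW8 and had a value of 0.22 in TC71 that did not pass. In the annotation used for counting, 53.5% of the exon bases of ALDOA also belong to other genes, and reads on such bases were left out, so the ALDOA level is uncertain. ALDOC, an aldolase of neural tissue, fell by 0.68 in EW8 and had a value of -0.65 in TC71 that did not pass, but was -1.04 and called without TC71 vehicle replicate 1.

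GAPDH, the dehydrogenase often used as a reference gene, was at 2633, 2770.2 and 2582 CPM in EW8 vehicle and at 3048, 3084 and 2914 CPM with doxycycline. In TC71 it stood at 1569, 1705 and 1764 CPM with vehicle and at 1643, 1624 and 1516 CPM with doxycycline. The groups stood apart in EW8, where the log2 fold change was 0.18 ± 0.05 (adjusted p = 0.0075, edgeR), and overlapped in TC71, where it was -0.07 ± 0.05 (adjusted p = 0.25, edgeR). Without TC71 vehicle replicate 1, GAPDH passed as lower in TC71, at -0.20 (adjusted p = 0.00016, edgeR). The difference between the lines was -0.25 ± 0.07, with an adjusted p of 0.017 by edgeR. Exon bases shared with another gene made up 14.2% of GAPDH.

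PGK1, phosphoglycerate kinase, fell in EW8 from 851, 869.8 and 906 CPM to 678, 675 and 720.2 CPM, with a log2 fold change of -0.34 ± 0.05. In TC71 its vehicle libraries were at 686, 692 and 738 CPM and its treated libraries at 678, 679.6 and 655 CPM, with a log2 fold change of -0.07 ± 0.05 that did not pass, and of -0.17, which passed, without vehicle replicate 1. PGAM1, phosphoglycerate mutase, rose by 0.65 in EW8 and 0.74 in TC71. ENO1, the ubiquitous enolase, rose by 0.60 and 0.23, and the neuronal enolase ENO2 rose by 0.25 in TC71 and had a value of 0.16 in EW8 that did not pass. Without TC71 vehicle replicate 1 the ENO2 value in TC71 was 0.12 and did not pass (adjusted p = 0.17, edgeR).

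PKM, pyruvate kinase, was the enzyme called in both lines. Its levels in EW8 were 1979, 2104 and 2013 CPM with vehicle and 5922, 5895 and 5607 CPM with doxycycline. In TC71 they were 2238, 2360 and 2416 CPM with vehicle and 5105, 5084 and 4702 CPM with doxycycline. Each treated library was above every vehicle library of its line, by a fitted 2.86-fold in EW8 and 2.12-fold in TC71. PKM (ENSG00000067225.17, hg38 chr15:72199029-72231822) had log2 fold changes of 1.52 ± 0.05 in EW8 (adjusted p = 1.1e-14, edgeR) and 1.09 ± 0.05 in TC71 (adjusted p = 9.4e-13, edgeR). The TC71 value was 0.98, under the fold limit, without TC71 vehicle replicate 1, and the response was smaller in TC71 than in EW8 by 0.43 on the log2 scale (adjusted p = 0.00011, edgeR). Counts per gene do not separate the PKM1 and PKM2 splice forms.

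LDHA, which turns pyruvate into lactate and is a standard HIF target, was at 1023, 1020.0 and 1048 CPM in EW8 vehicle and 1015, 999 and 1064 CPM with doxycycline. In TC71 it stood at 1472, 1386 and 1497 CPM with vehicle and 1648, 1524 and 1631 CPM with doxycycline. The EW8 groups overlapped, with a log2 fold change of -0.01 ± 0.05, and in TC71 the groups stood apart, with 0.14 ± 0.05 (adjusted p = 0.02, edgeR). The LDHA value in TC71 was 0.07 (adjusted p = 0.2, edgeR) without vehicle replicate 1 and 0.05 (adjusted p = 0.46, edgeR) with libraries scaled by size alone.

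Levels of different genes were compared per length, as CPM per kb of exon. On this scale GAPDH was the most abundant of the 16 enzymes in both EW8 groups, with means of 893 and 1012, and ENO1 was the most abundant in both TC71 groups, with means of 640.0 and 748. ALDOC was the least abundant in all 4 groups, from 0.972 to 4.13. The summed level of the 16 enzymes was 2962 ± 90.0 (SD, n = 3) in EW8 vehicle and 3808 ± 74.1 with doxycycline, and 2601 ± 71.1 and 3240.0 ± 114 in TC71. PKM made up 8.004% of the sum in EW8 vehicle and 17.8% with doxycycline, and 10.5% and 17.9% in TC71. Without PKM, the sum was 2725 ± 82.7 and 3130.4 ± 53.7 in EW8, and 2328 ± 60.7 and 2661 ± 87.6 in TC71. The treated libraries were above the vehicle libraries for both sums in both lines. ALDOA, with 53.5% of its exon bases shared with other genes and reads there left out, may enter these sums too low.

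**Figure D2:**
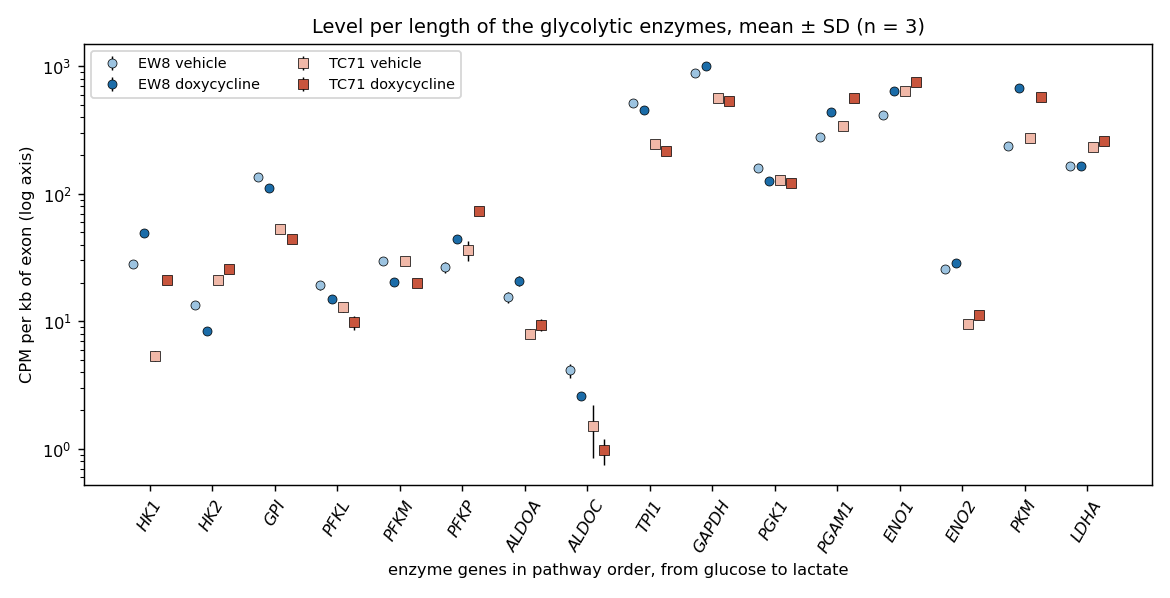
Level per length of the 16 enzyme genes in pathway order, as CPM per kb of exon on a log axis, with the mean and SD of 3 libraries in each group. PKM moves from 237 to 678 in EW8 and from 273 to 579 in TC71, while GPI and TPI1 are lower in TC71 than in EW8 and LDHA is nearly level in EW8.

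The transporters showed no change that passed the test. SLC2A1, the main glucose transporter and a HIF target, was at 44.7, 46.8 and 45.2 CPM in EW8 vehicle and 47.0, 47.4 and 41.0 CPM with doxycycline. In TC71 its levels were 48.3, 64.6 and 64.6 CPM with vehicle and 71.0, 67.8 and 62.6 CPM with doxycycline. The groups overlapped in both lines, and the log2 fold changes were -0.01 ± 0.10 (adjusted p = 0.93, edgeR) and 0.18 ± 0.10 (adjusted p = 0.14, edgeR). SLC2A3, a high-affinity glucose transporter, had log2 fold changes of 0.18 in EW8 and -0.07 in TC71, and SLC16A3, a lactate exporter, of -0.37 and 0.06.

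PFKFB3 makes fructose 2,6-bisphosphate, the activator of phosphofructokinase, and it was the regulator with the larger response. It went from 85.4, 81.7 and 82.3 CPM to 325, 318 and 301 CPM in EW8, and from 71.0, 62.6 and 63.7 CPM to 318, 303 and 291 CPM in TC71. The treated libraries were above the vehicle libraries in both lines, and reached similar levels. PFKFB3 (ENSG00000170525.20, hg38 chr10:6144934-6254644) had log2 fold changes of 1.92 ± 0.06 in EW8 (adjusted p = 1.2e-14, edgeR) and 2.21 ± 0.06 in TC71 (adjusted p = 1.6e-15, edgeR), and these calls held in each of 19 alternative analyses.

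PFKFB4, a related bifunctional enzyme, was at 7.80, 8.24 and 7.28 CPM in EW8 vehicle and 9.86, 10.0 and 9.16 CPM with doxycycline. In TC71 it stood at 7.96, 16.2 and 15.002 CPM with vehicle and 27.0, 25.5 and 26.7 CPM with doxycycline. The low TC71 value was that of replicate 1. PFKFB4 (ENSG00000114268.11, hg38 chr3:48517684-48562015) had a log2 fold change of 0.32 ± 0.18 in EW8 that did not pass and of 1.01 ± 0.18 in TC71 (adjusted p = 0.00011, edgeR). The TC71 call was lost in 11 of 19 alternatives, and the value was 0.68 without vehicle replicate 1. PDK1, which restrains pyruvate entry into mitochondria, rose by 0.48 in TC71 (adjusted p = 0.02, edgeR) and had a value of 0.17 in EW8 that did not pass. Without TC71 vehicle replicate 1 the PDK1 value in TC71 was 0.17 and did not pass (adjusted p = 0.19, edgeR).

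Within gene families the balance of isozymes moved, measured as the share of 1 gene in the summed CPM per kb of its family. HK2 made up 32.3% ± 1.47 (SD, n = 3) of HK1 and HK2 in EW8 vehicle and 14.6% ± 0.537 with doxycycline, and 79.7% ± 0.404 and 54.9% ± 0.571 in TC71. The share of HK2 was therefore lower with doxycycline in both lines, also in TC71, where HK2 itself was higher. PFKP made up 35.2% ± 1.64 of the phosphofructokinase level in EW8 vehicle and 55.6% ± 0.818 with doxycycline, and 45.7% ± 4.68 and 71.0% ± 0.839 in TC71. PFKFB4 went from 8.56% to 2.98% of PFKFB3 and PFKFB4 in EW8, and from 16.6% to 7.999% in TC71. For these 3 shares the groups did not overlap in either line, and the two-sided exact permutation test gave p = 0.1, the smallest value that 3 against 3 libraries allow.

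The other shares moved less or in 1 line. ALDOC went from 21.2% to 11.2% of the aldolase level in EW8 with no overlap, and from 15.5% to 9.35% in TC71 with overlap (exact permutation p = 0.3). The aldolase shares are uncertain, because reads on the 53.5% of ALDOA exon bases shared with other genes were left out. Those bases still count in the ALDOA length, which lowers its level per kb. SLC2A3 went from 35.9% to 39.2% in EW8 and from 15.6% to 13.4% in TC71, again with no overlap in either line. ENO2 went from 5.74% to 4.32% in EW8, and was 1.46% and 1.49% in TC71 (exact permutation p = 0.9). The share of EGLN3 in EGLN1 and EGLN3 was 1.34% and 1.31% in EW8 and 2.61% and 2.65% in TC71, with overlap in both lines.

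**Figure D3:**
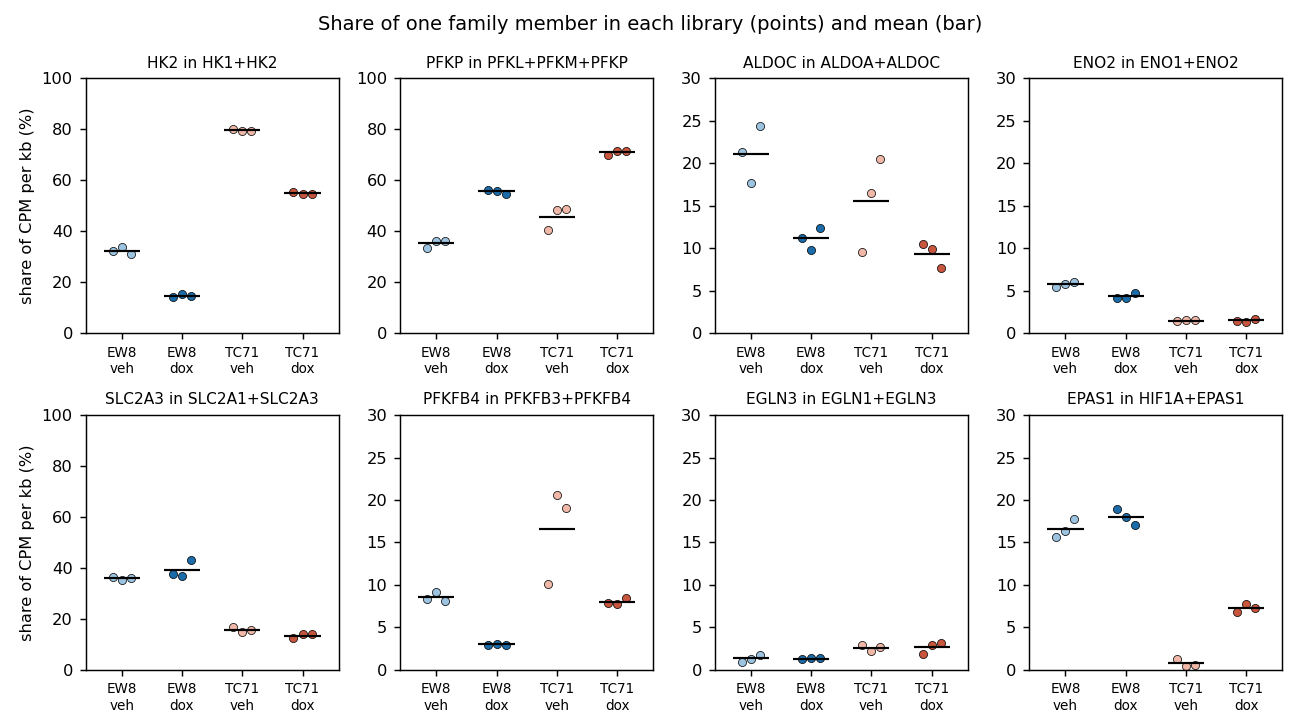
Share of 1 gene in the summed CPM per kb of its family, in percent, for each library (points) with the group mean (bar), in 8 families. The HK2 share is lower and the PFKP share higher with doxycycline in both lines, and the EPAS1 share rises from 0.758% to 7.31% in TC71.

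The responses of the HIF alpha subunits differed between the lines, by far more for EPAS1 than for HIF1A. HIF1A was at 124, 110.1 and 112 CPM in EW8 vehicle and 122, 119.7 and 127 CPM with doxycycline, and at 91.4, 98.9 and 91.4 CPM and 128, 126 and 134 CPM in TC71. The EW8 groups overlapped, at 0.09 ± 0.06 on the log2 scale (adjusted p = 0.23, edgeR), and the TC71 groups did not, with 0.46 ± 0.06 (adjusted p = 3.9e-06, edgeR). The HIF1A responses differed by 0.37 on the log2 scale, under the fold limit, and by 0.22 to 0.41 over 18 alternatives. That difference passed the adjusted p in the main fit, but not in every alternative. HIF-1 alpha is regulated mainly through the stability of the protein, which RNA counts do not measure.

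EPAS1 (ENSG00000116016.13, hg38 chr2:46293667-46386703), which encodes HIF-2 alpha, was at 32.5, 30.5 and 34.3 CPM in EW8 vehicle and 40.4, 37.2 and 37.0 CPM with doxycycline. In TC71 it stood at 1.64, 0.644 and 0.737 CPM with vehicle and 13.3, 15.1 and 14.9 CPM with doxycycline. The TC71 libraries with doxycycline stayed below each EW8 library. The log2 fold change was 0.24 ± 0.15 in EW8 (adjusted p = 0.23, edgeR) and 3.86 ± 0.20 in TC71 (adjusted p = 1.9e-11, edgeR), and the difference between these responses was 3.62 ± 0.26 (adjusted p = 1.2e-08, edgeR). EPAS1 made up 16.6% and 18.004% of the summed HIF1A and EPAS1 level per kb in EW8 without and with doxycycline, and 0.758% and 7.31% in TC71.

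Among the other HIF targets, NDRG1, a stress-responsive gene linked to differentiation, had the largest response in both lines of those with vehicle levels above the floor. It was at 5.64, 6.67 and 7.60 CPM in EW8 vehicle and 153, 151 and 146 CPM with doxycycline, and at 1.79, 1.22 and 1.36 CPM and 88.2, 79.7 and 82.1 CPM in TC71. The groups were far apart in both lines, by a fitted 22.4-fold and 57.4-fold. Its log2 fold changes were 4.49 ± 0.11 in EW8 (adjusted p = 2.8e-16, edgeR) and 5.84 ± 0.12 in TC71 (adjusted p = 3.8e-17, edgeR), and the TC71 response was larger by 1.35 ± 0.16 (adjusted p = 6.2e-06, edgeR).

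ANGPTL4, a secreted inhibitor of lipoprotein lipase, was at 20.1, 22.4 and 22.1 CPM in EW8 vehicle and 30.2, 26.1 and 23.8 CPM with doxycycline. In TC71 it stood at 3.97, 2.62 and 3.20 CPM with vehicle and 59.8, 58.4 and 49.0 CPM with doxycycline. TC71 thus started below EW8 and ended above it. ANGPTL4 (ENSG00000167772.11, hg38 chr19:8363289-8374373) had log2 fold changes of 0.31 ± 0.12 in EW8 (adjusted p = 0.046, edgeR) and 4.10 ± 0.14 in TC71 (adjusted p = 3.9e-14, edgeR), a difference of 3.79 ± 0.18 (adjusted p = 6.2e-11, edgeR). The small EW8 change lost its pass in 7 of 19 alternatives, with an adjusted p of up to 0.16 (without EW8 vehicle replicate 1).

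VEGFA, the principal growth factor for blood vessels, was at 27.8, 28.8 and 27.3 CPM in EW8 vehicle and 59.8, 61.6 and 59.97 CPM with doxycycline. In TC71 its vehicle libraries were spread over 39.6, 48.0 and 60.5 CPM and its treated libraries were at 77.7, 75.4 and 74.7 CPM. Treated libraries were higher in both lines. VEGFA (ENSG00000112715.21, hg38 chr6:43770184-43786487) had log2 fold changes of 1.11 ± 0.11 in EW8 (adjusted p = 8.6e-08, edgeR) and 0.62 ± 0.10 in TC71 (adjusted p = 6.5e-05, edgeR), and the response was smaller in TC71 by 0.49 (adjusted p = 0.024, edgeR).

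ADM, the vasodilator peptide adrenomedullin, was low in both lines. In EW8 it was at 0, 0.218 and 0 CPM with vehicle and at 0.716, 0.870 and 0.685 CPM with doxycycline, and in TC71 at 0.649, 0.966 and 0.466 CPM and 5.77, 6.55 and 6.01 CPM. The treated libraries were above the vehicle libraries in both lines. ADM (ENSG00000148926.9, hg38 chr11:10304680-10307397) had a log2 fold change of 3.12 ± 0.45 in TC71 (adjusted p = 1.5e-05, edgeR) and 3.40 ± 0.65 in EW8 (adjusted p = 0.00032, edgeR). The EW8 value rested on vehicle replicate 2, which held 10 counts; without it no vehicle count remained and the fitted value was 8.23, which depends on the prior count.

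The carbonic anhydrases CA9 and CA12 help tumour cells to keep their pH, and both were scarce. CA12 was at 0.0451, 0 and 0.0359 CPM in EW8 vehicle, each at or under 6 counts. With doxycycline it was at 0.716, 0.494 and 0.959 CPM in EW8, and their mean was 5.34-fold the floor of 0.135 CPM. In TC71 it went from 2.56, 3.25 and 3.38 CPM to 14.9, 18.6 and 15.7 CPM. CA12 (ENSG00000074410.13, hg38 chr15:63321378-63382161) was called in both lines, by 2.42 ± 0.21 on the log2 scale in TC71 (adjusted p = 2.2e-08, edgeR) and an adjusted p of 5.1e-07 in EW8. CA9, the sharper HIF marker, was at 0, 0.131 and 0.216 CPM in EW8 vehicle and 0.143, 0.356 and 0.320 CPM with doxycycline, with overlap and an adjusted p of 0.36 by edgeR. In TC71 it stood at 0 CPM with vehicle and at 0, 0.0239 and 0 CPM with doxycycline, so no fold is given, and a difference was not detectable at this depth. Part of CA9 (38.5% of its exon bases) is shared with ARHGEF39 on the opposite strand, and reads there were left out.

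DDIT4, an inhibitor of mTORC1 that responds to many stresses, was at 3.79, 5.27 and 4.06 CPM in EW8 vehicle and 5.76, 6.48 and 6.90 CPM with doxycycline. In TC71 the vehicle libraries were at 6.76, 16.8 and 58.8 CPM and the treated libraries at 5.21, 7.96 and 6.01 CPM. The TC71 groups overlapped, and vehicle replicate 3 lay far above the other libraries. DDIT4 (ENSG00000168209.4, hg38 chr10:72273920-72276036) was the gene called lower in TC71, at -2.10 ± 0.48 on the log2 scale (adjusted p = 0.0014, edgeR), which became -0.94 and lost the call without vehicle replicate 3. Its EW8 value was 0.54 ± 0.49 (adjusted p = 0.41, edgeR), although the EW8 groups did not overlap. The spread behind this SE was estimated over all 12 libraries, those of TC71 included. The EW8 value passed the adjusted p in 2 of 19 alternatives, with only the EW8 libraries in the fit and with no filter on low counts. Exon bases shared with another gene made up 41.2% of DDIT4.

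The remaining HIF targets had fold changes within the limit. KDM3A, a histone demethylase, rose by 0.32 in EW8 and 0.87 in TC71. EGLN1, the main oxygen-sensing prolyl hydroxylase, rose by 0.63 in EW8 and had -0.02 in TC71, and the mitophagy receptor BNIP3 had -0.51 in EW8, which passed, and 0.10 in TC71, which did not. The mitophagy receptor BNIP3L, the prolyl hydroxylase EGLN3, the ankyrin-repeat gene ANKRD37 and the collagen prolyl hydroxylase P4HA1 had values between -0.13 and 0.77, none of which passed. ANKRD37 shares 35.2% of its exon bases with UFSP2.

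**Figure D4:**
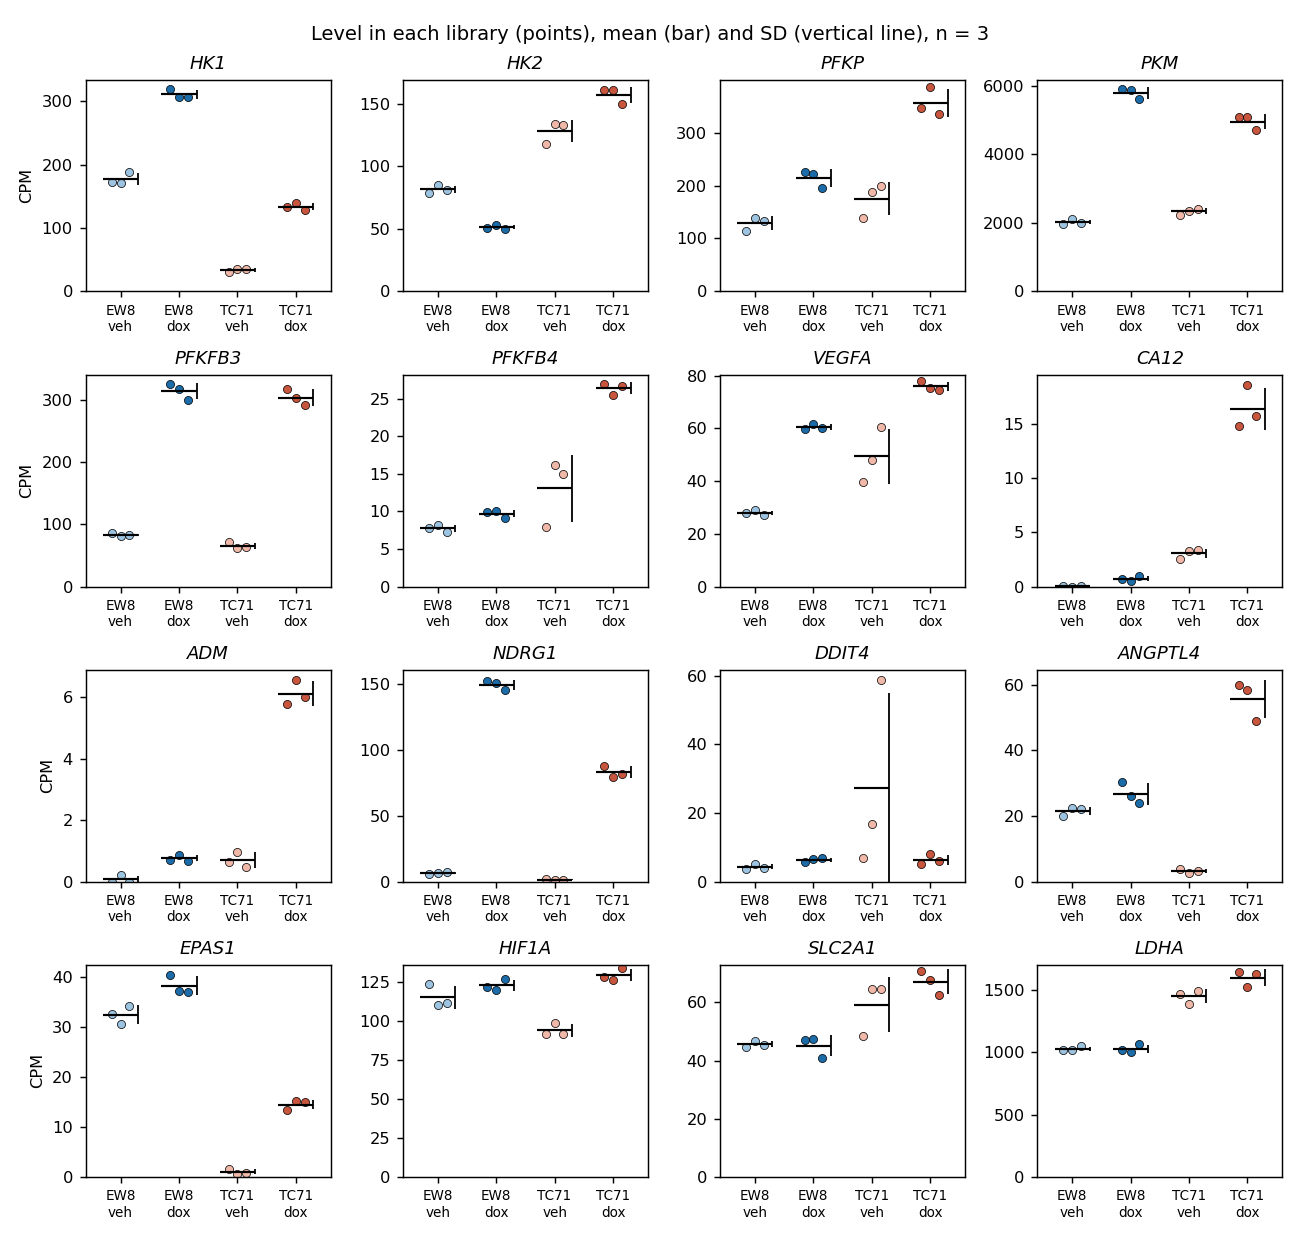
CPM in each of the 12 libraries for 16 of the genes, on axes that start at 0, with the mean as a bar and the SD of 3 libraries as a vertical line. PKM, PFKFB3 and NDRG1 separate treated from vehicle libraries in both lines, EPAS1 and ANGPTL4 move mainly in TC71, and the TC71 vehicle libraries of DDIT4 spread from 6.76 to 58.8 CPM.

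Markers of endothelial cells also moved with doxycycline. Of the 3 examined (PECAM1, CDH5 and VWF), 2 were called higher in EW8 and 3 in TC71, against 11.4% and 12.3% of all genes. Their summed level was 7.22 to 8.48 CPM in EW8 vehicle and 36.1 to 43.7 CPM with doxycycline, and 0 to 0.0388 CPM and 3.75 to 4.61 CPM in TC71. Most of the EW8 sum was PECAM1, at 6.45 to 8.01 CPM with vehicle and 32.7 to 40.1 CPM with doxycycline. CDH5 overlapped in EW8, at 0.359 to 1.83 CPM with vehicle and 0.320 to 0.909 CPM with doxycycline. PECAM1 and VWF were at 0 in the TC71 vehicle libraries. The leukocyte markers PTPRC and CD14 were not called in either line, CD3E was too low to be tested, and CD14 was at most 0.573 CPM in EW8 and 0.382 CPM in TC71. Their part in the results on VEGFA, ADM, ANGPTL4 and EPAS1 was not tested, and in bulk RNA fewer cells of a type and less RNA per cell cannot be told apart.

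The lines differed in these responses for 6 genes by the full call rule. HK1, NDRG1, ANGPTL4 and EPAS1 responded more strongly in the positive direction in TC71, 4 genes where 4.18% of all genes were called, and CA12 and DDIT4 lay in the other direction, 2 genes where 2.87% were. The CA12 difference was -2.17 ± 0.63 (adjusted p = 0.021, edgeR), and without EW8 vehicle replicate 2 it was -1.66 with an adjusted p of 0.081. The DDIT4 difference was -2.64 ± 0.68 (adjusted p = 0.01, edgeR), and -1.52 without TC71 vehicle replicate 3. Without EW8 vehicle replicate 2, the ADM difference went from -0.28 to -5.11, past the limit, with EW8 vehicle then at 0. Without a fold limit, 17 genes differed in response, against 19.3% of all genes, among them PKM, ENO1, VEGFA and EGLN1 with the smaller response in TC71 and HK2, KDM3A, BNIP3 and HIF1A with the higher value there.

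Before induction the lines already differed. Under vehicle, 5 genes were called higher in TC71 than in EW8 (CA12, ADM, DDIT4, EGLN1 and EGLN3), against 11.6% of all genes, and 13 were called lower, against 18.9%. Those lower in TC71 were HK1, GPI, ALDOC, TPI1, ENO2, SLC2A3, SLC16A3, CA9, NDRG1, BNIP3, ANKRD37, ANGPTL4 and EPAS1. Without a fold limit, 37 of the 38 differed, against 61.7% of all genes, and PFKM, at a log2 difference of 0.01 ± 0.05, was the exception. EPAS1 had the widest negative difference above the floor, at -5.02 ± 0.20, followed by ANGPTL4 at -2.73 ± 0.14, HK1 at -2.39 ± 0.07 and NDRG1 at -2.20 ± 0.13. CA12 in EW8 and CA9 in TC71 were at the floor in this comparison. The DDIT4 difference of 2.65 was 1.47 without TC71 vehicle replicate 3, and the differences of PFKFB4 (0.75) and VEGFA (0.82) were 1.12 and 1.06, past the limit, without TC71 vehicle replicate 1. The TPI1 difference of -1.06 was -0.93, under the limit, without that library, and lost its call in 3 of 17 alternatives. The ADM difference of 3.29 was 8.11 without EW8 vehicle replicate 2, when no EW8 count remained. This comparison uses the same vehicle libraries as the responses. The lines are different tumours, so each difference is one between 2 cell lines.

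Related genes outside the 38 were read for context from a pair of wider lists. Of 40 other genes of glucose metabolism, 32 were tested, and 6 were called higher and 1 lower in EW8, and 3 higher and 1 lower in TC71, where the shares of all genes were 11.4% and 3.38% in EW8 and 12.3% and 3.67% in TC71. The glycogen branching enzyme GBE1 had log2 fold changes of 1.72 ± 0.09 in EW8 and 2.20 ± 0.08 in TC71, the glucose transporter SLC2A6 had 1.98 ± 0.16 and 2.00 ± 0.19, and the insulin-responsive transporter SLC2A4 had -1.71 ± 0.65 and -2.18 ± 0.65. Of 39 other genes of the hypoxia response, 37 were tested, with 6 called higher and 2 lower in EW8, and 8 higher and 2 lower in TC71, beside the same shares of all genes. Among those with large changes were TXNIP, an inhibitor of glucose uptake, at -3.19 ± 0.17, and the repressor BHLHE40 at 2.93 ± 0.11 in EW8, and the hormone STC1 at 4.37 ± 0.11 and the collagen prolyl hydroxylase P4HA2 at 3.62 ± 0.08 in TC71. The median log2 fold change over the tested hypoxia genes was -0.05 in EW8 and 0.22 in TC71.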

How the data were processed

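Stranded mRNA libraries, 12 in all, were made from EW8 and TC71 cells and sequenced as read pairs. Per the labels and the study's methods, the authors checked reads with FastQC, aligned them to hg38 with STAR and counted them on GENCODE release 29 genes with featureCounts 2.0.1. The deposited values were raw counts per gene, not normalized, with the exon length of each gene in bases. Per the file headers, the counter ran with its default settings for pairing, strandedness, multi-mapping and overlap, so mates counted singly, strand was ignored, and reads on several genes or places were dropped. Counts of genes with processed copies, such as GAPDH, PGK1 and LDHA, or with a close paralog, such as SLC2A3, are uncertain for that reason.

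Counts were tested with edgeR 4.0.16 in R 4.3.3 in a single quasi-likelihood fit of the 4 groups, with filterByExpr (21013 genes kept), TMM scaling and Benjamini-Hochberg adjustment over all genes tested. Errors of log2 fold changes are SE. The authors used another tool, DESeq2, and version 1.42.0 was run as an alternative. CPM per kb divides by the deposited exon length. A group with 6 counts (3 read pairs) or fewer in each library was treated as at the floor, which covers counting error only. Isozyme shares were compared with a two-sided exact permutation test. The procedure was tested on simulated data. Every gene called in a line or in the difference between lines was given by library, along with HIF1A, EPAS1, GAPDH, LDHA, PGK1, VEGFA, CA9 and SLC2A1. From the wider lists, the 3 called genes with the largest change in a line and above the floor were named, except that an item of these lists and a marker are not reported here. HK2, given by library beyond this rule, was chosen after its values were seen. The genes and lists were chosen with earlier results of these data known. Promoter sequences are RefSeq's, build GRCh38.p14. Alternatives were other scalings and filters, DESeq2, a replicate block, no fold limit and leaving out each library.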

Additional observations from a re-analysis of the deposited data

Results flagged for a closer look

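The doxycycline response differed between the lines for 6 genes by the interaction test of edgeR, each given as the TC71 response minus the EW8 response on the log2 scale with 3 libraries per group. Higher in TC71 were ANGPTL4 (3.79), EPAS1 (3.62), NDRG1 (1.35) and HK1 (1.17). Lower in TC71 were DDIT4 (-2.64) and CA12 (-2.17). The CA12 vehicle libraries of EW8 were at the floor, and the DDIT4 vehicle libraries of TC71 spread from 6.76 to 58.8 CPM, and the CA12 value was -1.66 (adjusted p = 0.081, edgeR) without EW8 vehicle replicate 2 while that of DDIT4 was -1.52 without TC71 vehicle replicate 3. No explanation of these differences was tested.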

How the results depend on the processing

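No result changed sign past its threshold. Without the fold limit, the genes called higher and lower became 15 and 8 in EW8 and 19 and 5 in TC71, with 17 differing in response and 37 differing under vehicle. Requiring at least 10 counts in every library left 6 called higher in TC71. CA12 and ADM were not tested under that filter, because of their EW8 vehicle counts, and PFKP and PFKFB4 lost the call. Leaving out each library in turn gave 0 to 2 called lower in TC71 (0 without vehicle replicate 3, 2 without vehicle replicate 1), 4 to 7 enzymes lower without a fold limit in EW8 (4 without doxycycline replicate 3) and 4 to 7 in TC71 (7 without vehicle replicate 1), and 7 to 10 called higher in TC71. Scaling by library size alone gave 7 enzymes lower in TC71. DESeq2 called 6 higher and 0 lower in EW8, and 8 higher and 1 lower in TC71. The replicate block called 6 and 0 in EW8, 10 and 1 in TC71, and 6 in the difference. Libraries with the same replicate number did not deviate together (correlations between -0.028 and 0.010). No pairing by number was thus seen, although a weak one could stay hidden under counting noise. The block gave no value for the vehicle comparison of the lines, since numbers are nested in lines there. Of single-gene values, 29 lost a call, mostly PFKP and PFKFB4 in TC71, and 5 gained one, and the cause was not tested. Shares taken from raw counts with no length scaling moved for PFKP in EW8 and EPAS1 in TC71. Low counts limit CA9, CA12, ADM, EGLN3 and ANKRD37.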

Other observations

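Within the TC71 vehicle group, replicate 1 was the lowest of the 3 libraries for 25 of the 37 genes above the floor, and replicate 3 was the highest for 22. Among the 13 other HIF targets above the floor in that group, replicate 1 was the lowest for 7 and replicate 3 the highest for 7. In the TC71 doxycycline group, replicate 3 was the lowest for 23 of 37. DDIT4, PFKFB4, PDK1, SLC2A1 and VEGFA had their lowest TC71 vehicle value in replicate 1. The same library was the highest of its group for 9 of the 37 genes, among them EPAS1, PFKFB3, NDRG1 and ANGPTL4. It was the highest for 5 of the 13 other HIF targets. These are values of single libraries, and what they share beyond the label was not tested.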
